A study of Mus musculus with 6 samples.

Results

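Heat shock protein genes of the cytosol and of mitochondria were followed in mouse liver on a diet containing collagen peptide. The set was defined by name as 10 genes: the cytosolic chaperone genes Hspa1b, Hspa8, Hsp90aa1, Hsp90ab1, Hsph1, Dnajb1 and Hspb1, and the mitochondrial ones Hspd1, Hspe1 and Hspa9. Every probe set annotated to exactly 1 of these symbols was taken, which gave 26 probe sets of 9 genes, out of 18193 genes that had such a probe set on the array. Hsp90ab1 had no probe set named to it in the annotation used and was not analysed here. The 6 animals were male BALB/cCrSlc mice, an inbred strain, aged 17 weeks and sampled in the morning under pentobarbital anaesthesia after 3 h without food. The 3 mice named 6C+4CP had eaten a low-protein AIN-93M-based diet with 6% casein and 4% fish collagen peptide for 10 weeks. The 3 mice named 10C had eaten the same kind of low-protein diet with 10% casein for as long. The mice on 6C+4CP thus ate less casein as well as collagen peptide, and the effects of the 2 cannot be told apart. Only mice of medium food efficiency were used, 3 of 12 per diet, and each gave 1 Affymetrix array, from a piece of 1 liver lobe.

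Heat shock proteins are chaperones that hold, fold or refold other proteins. In the cytosol, Hsp70 proteins (Hspa1b, Hspa8) work in cycles with J-domain partners such as Dnajb1 and with exchange factors such as Hsph1, Hsp90 proteins mature kinases and nuclear receptors, and the small protein Hspb1 binds unfolding proteins without using ATP. In mitochondria, Hspa9 pulls in and folds imported proteins, and Hspd1 and Hspe1 form the chamber and lid of a folding cage. Many of these genes are switched on by the factor HSF1, which binds repeats of the letters GAA and TTC, and transcripts of several of them are known to rise and fall over the day in mouse liver.

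The stretches before the starts of 4 of these genes are shown because they carry such repeats and belong to genes whose values are set side by side below: the pair with the widest spread between mice (Hspa1b and Hspb1), Hsph1, and Hspe1 as the mitochondrial gene that varied. The sequences come from RefSeq (GRCm38.p6) and run 5′ to 3′ over the 250 bases before the start, on the strand of the gene. Capitals mark GAANNTTC or TTCNNGAA, searched on both strands, each of which reads the same on either strand.
Hspa1b, chr17:34959239-34959488, minus strand: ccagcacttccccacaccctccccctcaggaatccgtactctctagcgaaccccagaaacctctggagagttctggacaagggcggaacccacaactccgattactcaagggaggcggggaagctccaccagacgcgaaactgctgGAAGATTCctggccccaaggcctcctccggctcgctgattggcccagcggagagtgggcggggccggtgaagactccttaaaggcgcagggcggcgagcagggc
Hspb1, chr5:135887669-135887918, plus strand: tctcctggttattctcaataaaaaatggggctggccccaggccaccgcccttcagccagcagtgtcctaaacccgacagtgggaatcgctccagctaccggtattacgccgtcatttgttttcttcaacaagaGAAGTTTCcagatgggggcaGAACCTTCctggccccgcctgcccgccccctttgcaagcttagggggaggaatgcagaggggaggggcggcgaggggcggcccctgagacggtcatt
Hsph1, chr5:149636337-149636586, minus strand: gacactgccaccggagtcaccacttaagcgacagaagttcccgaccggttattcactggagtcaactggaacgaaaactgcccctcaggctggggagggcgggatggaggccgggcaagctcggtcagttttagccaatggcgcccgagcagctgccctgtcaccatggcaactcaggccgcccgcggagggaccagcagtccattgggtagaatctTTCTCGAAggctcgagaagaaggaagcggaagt
Hspe1, chr1:55087898-55088147, plus strand: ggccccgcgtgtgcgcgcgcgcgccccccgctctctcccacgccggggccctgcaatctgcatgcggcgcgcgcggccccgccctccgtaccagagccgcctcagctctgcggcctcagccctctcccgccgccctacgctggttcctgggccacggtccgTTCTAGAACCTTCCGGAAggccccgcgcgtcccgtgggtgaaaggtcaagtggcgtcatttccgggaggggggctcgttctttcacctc

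Hspa1b had 1 match, GAAGATTC, which began 104 bases before the start. Hspb1 had 2 matches, GAAGTTTC and GAACCTTC, which began 117 and 97 bases before it. Hspe1 had 3 overlapping matches that joined into a longer repeat of TTC, GAA, TTC and GAA in turn, each unit 2 bases from the next. A search for 3 alternating units in a row therefore found this repeat both as GAA, TTC, GAA and as the reverse complement TTC, GAA, TTC. Hsph1 had 1 match, TTCTCGAA, which began 33 bases before the start. Hspd1 lies head to head with Hspe1, and the second of its 2 windows shared 215 of the 250 bases with that of Hspe1, so both genes flank the same repeat. Windows were found for 6 of the 10 genes (Hspa1b, Hsph1, Dnajb1, Hspb1, Hspd1 and Hspe1), 9 windows in all. Of these 9 windows 6 held an 8-letter match, against 12.8% of 32851 windows of all genes, and 2 held 3 alternating units in a row, against 0.466%. These are not separate sites, since both windows of Hsph1 hold the same match and those of Hspd1 and Hspe1 the same repeat. No window of Dnajb1 held these letters. A match is a description of the sequence and shows no binding.

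Most probe sets on these arrays hold 1 value that all 6 mice share, so each probe set was first marked by whether it ranged over more than 0.01 on the log2 scale of the deposited values. Of all 45037 probe sets 17.3% varied in this sense, and of the heat shock probe sets 19 of 26 did, 16 of 18 in the cytosol and 3 of 8 in mitochondria. A shared value does not show whether the level differed between mice. The values are read as log2, and each fold rests on that reading. Hepatocyte markers were present, 5 of the 6 listed having a probe set, with Alb at a shared 14.23 and Ttr between 13.87 and 13.93. The array of 6C+4CP replicate 2 stood apart in the control probe sets for Actb, with a gap of 1.69 between 3′ and 5′ ends, against 1.15 and 1.24 in the other 6C+4CP mice and 1.18 to 1.27 in the 10C mice. For Gapdh the gap was 0.618 in that mouse and 0.176 to 0.306 in the others. The profile of 10C replicate 3 was closer to that mouse (Pearson's r = 0.985 over varying probe sets) than to the rest of the 10C diet (0.971 and 0.973), which is given as a description. For most heat shock genes below, the difference of at least 1 probe set is also given with 6C+4CP replicate 2 or 10C replicate 3 left out. Most other differences are given with all 6 mice only. All values are from bulk tissue, where fewer cells of a type and less RNA per cell cannot be told apart.

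The heat shock genes did not share 1 direction between the diets. Among the 16 varying cytosolic probe sets, 8 had a lower and 8 a higher mean in 6C+4CP livers than in 10C livers, with a median log2 difference of -0.0027. The 3 varying mitochondrial probe sets all had a lower mean in 6C+4CP, with a median of -0.14. Over all 7791 varying probe sets the median was -0.0040 and 52.1% were lower. Limma with Benjamini-Hochberg adjustment over all probe sets called 0 of the 26 heat shock probe sets at an adjusted p under 0.05 (background 0.242% of all probe sets and 0.077% of varying ones), and 0 were called when only varying probe sets were fitted (background 0%). At an unadjusted p under 0.05 there were 3 of the 19 varying ones, against a background of 13.1%. In 3 of the 19, all lower in 6C+4CP, the mice of the diets did not overlap (background 9.11%), and in 0 were they higher without overlap (background 10.8%). Of these 3, 2 are probe sets of the same gene, Hsp90aa1. With the highest-mean probe set per gene, 0 heat shock genes were without overlap (background 9.52% lower and 11.8% higher). At that probe set 0 had an unadjusted limma p under 0.05 (background 13.7%).

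**Figure D1:**
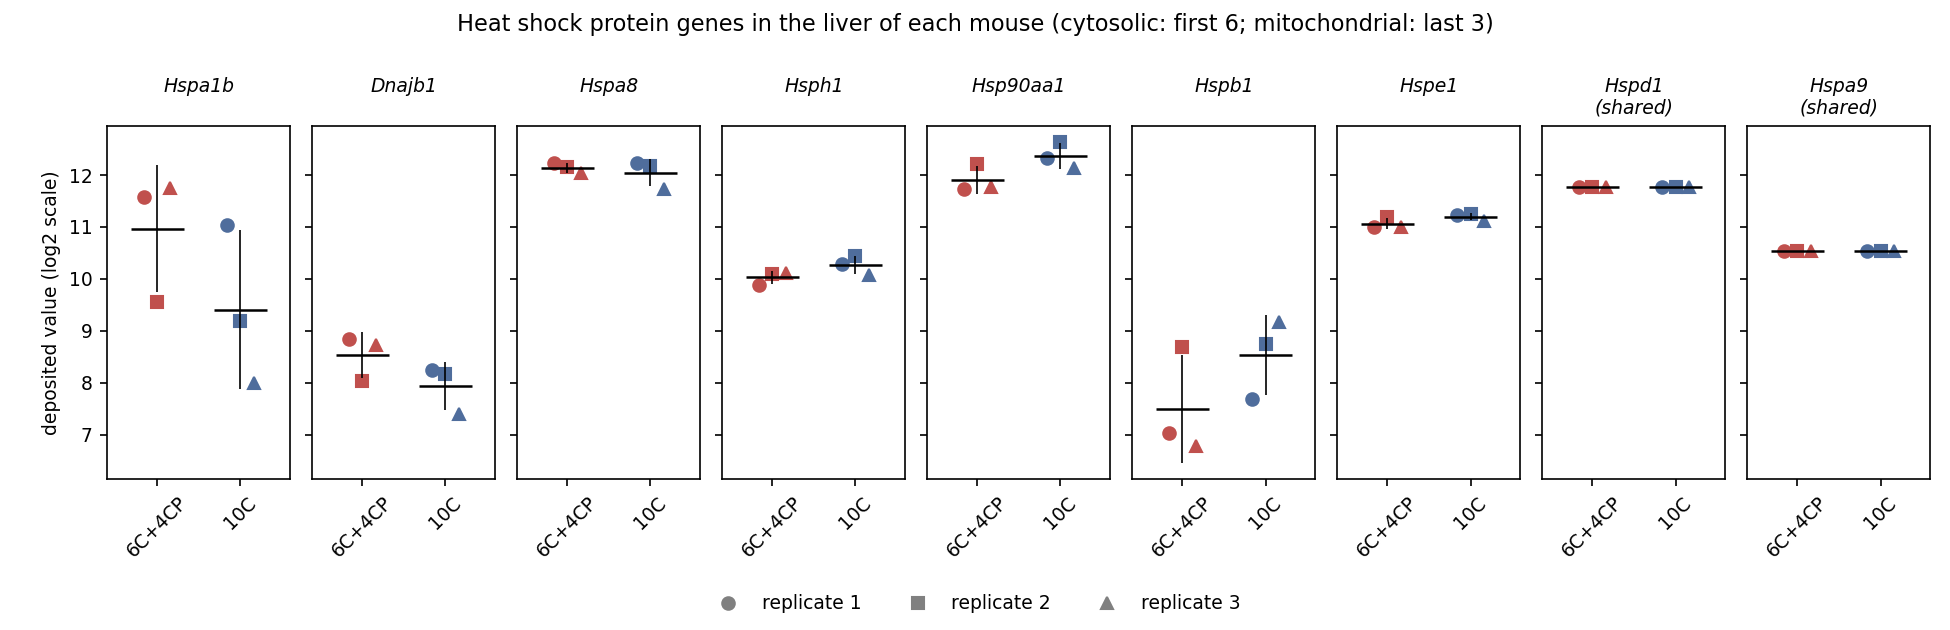
Deposited value on the log2 scale (y axis) of the probe set with the highest mean for each of 9 heat shock genes, with 6C+4CP mice (red) left of 10C mice (blue); symbols mark replicate numbers, the horizontal line is the mean and the vertical line its SD over 3 mice. Hspa1b and Hspb1 spread widest within each diet, and Hspd1 and Hspa9 hold 1 shared value; levels of different genes are not comparable on this axis.

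Hsp90aa1, the inducible cytosolic Hsp90, had a lower mean in 6C+4CP in all 3 of its varying probe sets. The probe set 1426645_at read 10.25, 10.53 and 10.41 in the livers of 6C+4CP replicates 1 to 3, against 11.32, 11.76 and 11.06 in 10C replicates 1 to 3. Every 6C+4CP mouse lay below every 10C mouse. The mean was 10.40 ± 0.14 in 6C+4CP and 11.38 ± 0.35 in 10C (SD, n = 3 each), a log2 difference of -0.98 (SE 0.22), or 1.98 times higher in 10C. It did not pass limma over all probe sets (adjusted p = 0.572), nor among varying ones alone (adjusted p = 0.141).

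The probe set 1437497_a_at of Hsp90aa1 read 10.13, 10.73 and 10.34 in 6C+4CP livers, against 11.18, 11.78 and 10.93 in 10C livers. The diets again did not overlap, with a log2 difference of -0.89 (SE 0.30, limma adjusted p = 0.704). The brightest probe set, 1438902_a_at, read 11.74, 12.21 and 11.77 in 6C+4CP mice and 12.33, 12.64 and 12.14 in 10C mice, a difference of -0.47 (SE 0.21). Here 6C+4CP replicate 2 lay above 10C replicate 3, so the diets overlapped. In all 3 probe sets 10C replicate 2 was the highest mouse and 6C+4CP replicate 1 the lowest. With 10C replicate 2 left out the 3 differences were -0.79, -0.65 and -0.33, and with 6C+4CP replicate 2 left out they were -1.05, -1.06 and -0.62, in the order given above. With 10C replicate 3 left out they were -1.15, -1.08 and -0.58. The remaining 2 probe sets of Hsp90aa1 held shared values of 6.92 and 6.32.

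Hspa1b, the inducible Hsp70 that accumulates after heat or proteotoxic stress, differed more between mice of 1 diet than between the diets. Its probe set 1452318_a_at read 11.58, 9.55 and 11.76 in 6C+4CP replicates 1 to 3, against 11.05, 9.19 and 7.99 in 10C replicates 1 to 3. One mouse of each diet lay inside the range of the other, namely 6C+4CP replicate 2 and 10C replicate 1. The highest 10C mouse exceeded the lowest by 8.29 times, and in 6C+4CP the factor was 4.62. The mean was 10.96 ± 1.23 in 6C+4CP and 9.41 ± 1.54 in 10C (SD, n = 3 each), a log2 difference of 1.56 (SE 1.12, limma adjusted p = 0.852), which is smaller than the range within either diet. Only 22 of the 7791 varying probe sets ranged more widely over the 6 mice.

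The other Hspa1b probe sets also overlapped between the diets. The probe set 1427127_x_at read 10.89, 8.38 and 11.29 in 6C+4CP mice and 10.36, 8.41 and 7.23 in 10C mice, a difference of 1.52 (SE 1.27). The probe set 1427126_at read 10.36, 7.48 and 10.67 in 6C+4CP mice and 9.66, 8.0 and 6.61 in 10C mice, a difference of 1.42 (SE 1.32). In all 3 the 2 high 6C+4CP mice were replicates 1 and 3, and the lowest of all mice was 10C replicate 3. In these 2 probe sets 10C replicate 2 lay above 6C+4CP replicate 2, the reverse of 1452318_a_at. The size of the difference rested on single mice. For 1452318_a_at it was 0.85 when 10C replicate 3 was left out, 2.37 when 10C replicate 1 was and 2.26 when 6C+4CP replicate 2 was.

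Mice carry a near-identical neighbour gene, Hspa1a, and the windows before the starts of Hspa1b and Hspa1a differed at 3 of 250 bases. The 2 genes are close copies, so how far the Hspa1b probe sets also measure Hspa1a is uncertain. The probe set named to Hspa1a alone read 7.20, 6.03 and 7.84 in 6C+4CP mice, against 6.51, 5.89 and 5.72 in 10C mice. Its difference was 0.98 (SE 0.57, limma adjusted p = 0.794), with overlap. From the lowest to the highest mouse, Hspa1a had the same order as Hspa1b 1452318_a_at: 10C replicate 3, 10C replicate 2, 6C+4CP replicate 2, 10C replicate 1, 6C+4CP replicate 1, 6C+4CP replicate 3.

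Dnajb1, the J-domain partner that hands unfolded proteins to inducible Hsp70, had the same 2 highest mice and the same lowest mouse as Hspa1b, with smaller steps. Its probe set 1416755_at read 8.85, 8.03 and 8.72 in 6C+4CP mice, against 8.24, 8.16 and 7.39 in 10C mice. The 2 mice above all 10C mice were 6C+4CP replicates 1 and 3, while 6C+4CP replicate 2 lay within the 10C range. The difference was 0.60 (SE 0.36, limma adjusted p = 0.827), with a value of 0.33 when 10C replicate 3 was left out and of 0.85 when 6C+4CP replicate 2 was. The other probe set, 1416756_at, read 8.47, 8.12 and 8.47 in 6C+4CP mice and 8.14, 8.01 and 7.75 in 10C mice, a difference of 0.39 (SE 0.16) that also overlapped.

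Hspb1, the small heat shock protein that binds unfolding proteins and actin, ran opposite to Hspa1b from mouse to mouse. Its probe set 1422943_a_at read 7.03, 8.69 and 6.77 in 6C+4CP replicates 1 to 3, against 7.68, 8.74 and 9.17 in 10C replicates 1 to 3. The order of the 6 mice was the exact reverse of that of Hspa1b 1452318_a_at, in 6C+4CP and in 10C alike. Against the other 2 Hspa1b probe sets the reverse held within each diet, but not between 6C+4CP replicate 2 and 10C replicate 2. In Hspb1, 6C+4CP replicate 2 lay inside the 10C range. The mean was 7.50 ± 1.04 in 6C+4CP and 8.53 ± 0.76 in 10C (SD, n = 3 each), a difference of -1.03 (SE 0.73, limma adjusted p = 0.852). The second probe set, 1425964_x_at, read 6.79, 8.48 and 6.45 in 6C+4CP mice and 7.38, 8.66 and 8.95 in 10C mice, a difference of -1.09 (SE 0.78). Without 6C+4CP replicate 2 the differences of the 2 probe sets were -1.63 and -1.71, and without 10C replicate 3 they were -0.71 and -0.78.

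**Figure D2:**
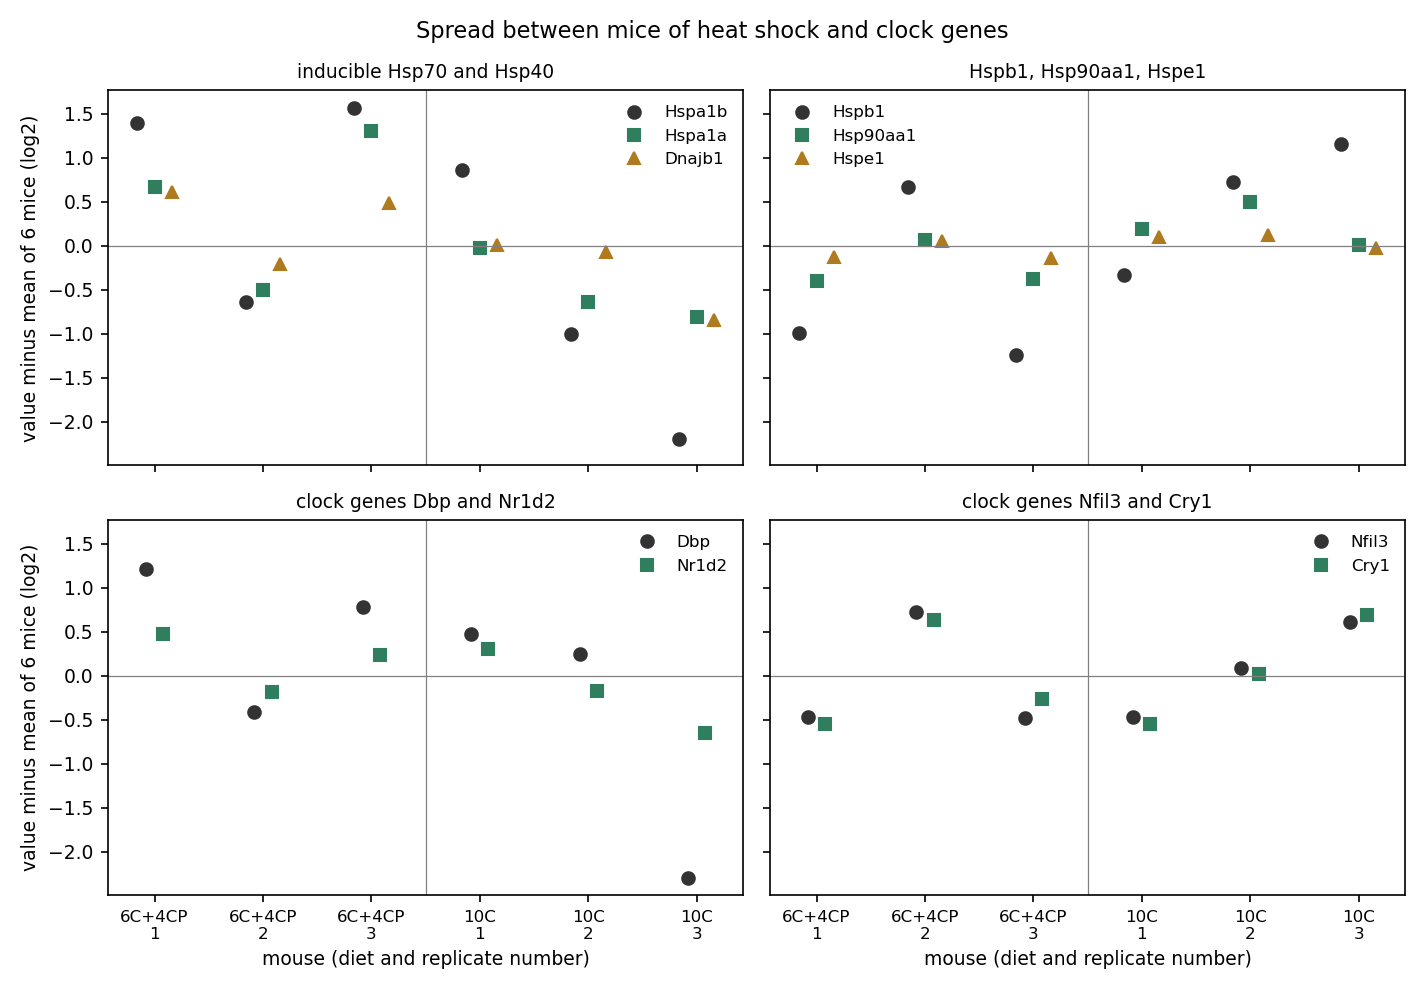
Value of each mouse minus the mean of the 6 mice (y axis, log2 scale) for heat shock genes (upper panels) and clock genes (lower panels), 1 probe set per gene, with 6C+4CP replicates 1 to 3 left of the vertical line and 10C replicates 1 to 3 right of it. Hspa1b, Hspa1a, Dnajb1 and Dbp are high in 6C+4CP replicates 1 and 3 and lowest in 10C replicate 3, where Hspb1 and Cry1 are highest.

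Some clock genes were spread over the mice in a like way, and their part in the spread of Hspa1b and Hspb1 was not tested. Of 16 clock genes measured 12 varied, 7 with a higher and 5 with a lower mean in 6C+4CP, with a median difference of 0.040. The summed value of the 16 ran from 123.7 to 124.7 in 6C+4CP mice and from 121.9 to 124.4 in 10C mice. Dbp, a transcription factor driven by the clock, read 11.20, 9.57 and 10.76 in 6C+4CP mice, against 10.46, 10.23 and 7.69 in 10C mice, so 10C replicate 3 was lowest as for Hspa1b. Cry1, a repressor within the clock, read 7.17, 8.35 and 7.46 in 6C+4CP mice and 7.17, 7.74 and 8.41 in 10C mice, with 10C replicate 3 highest as for Hspb1, and 6C+4CP replicate 2 and 10C replicate 2 next. The difference between the diets was 1.05 (SE 0.99) for Dbp and -0.11 (SE 0.50) for Cry1, neither of which passed limma (adjusted p = 0.852 and 1.00). These 2 genes, and Nr1d2 and Nfil3 in the plot of deviations by mouse, were chosen after their values were seen. Other clock genes had other orders of mice. Per2 and Per3 were lowest in 10C replicate 3 but highest in 10C replicate 2, and Hlf was lowest in 10C replicate 1. By smallest p the list gave Tef with a difference of 0.27 (SE 0.066), Ciart with 0.056 (SE 0.024) and Clock with 0.076 (SE 0.056). Tef was the 1 of the 12 varying clock genes without overlap, all 6C+4CP mice lying above all 10C mice (background 11.8%). It did not pass limma (adjusted p = 0.574).

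Hspa8, the constitutive Hsp70 that all cells use for routine folding, had 4 varying probe sets and small differences of either sign. Its brightest probe set, 1455789_x_at, read 12.23, 12.16 and 12.03 in 6C+4CP mice, against 12.23, 12.18 and 11.74 in 10C mice. The ranges overlapped, and 10C replicate 3 was again the lowest mouse, as it was in all 4 Hspa8 probe sets. The difference was 0.092 (SE 0.16, limma adjusted p = 0.947), and leaving out 10C replicate 3 gave -0.061, while leaving out 6C+4CP replicate 2 gave 0.084. Of the others, 1420623_x_at differed by -0.15 (SE 0.18) and 1420622_a_at by 0.18 (SE 0.31). When 1 mouse was left out, the difference of 1420622_a_at ran from -0.12 to 0.34. The dim probe set 1431182_at differed by 0.44 (SE 0.35), which rested on 6C+4CP replicate 3 at 7.81, against 6.57 to 6.86 in the other mice, and was 0.096 without that mouse.

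Hsph1, the Hsp110 protein that reloads Hsp70 with ATP, had slightly lower means in 6C+4CP. Its brighter probe set, 1425993_a_at, read 9.89, 10.09 and 10.12 in 6C+4CP mice, against 10.29, 10.43 and 10.08 in 10C mice. Only 10C replicate 3 fell among the 6C+4CP mice, and without it the difference of -0.23 (SE 0.12, limma adjusted p = 0.748) was -0.33, while leaving out 6C+4CP replicate 2 gave -0.26. The second probe set, 1423566_a_at, differed by -0.098 (SE 0.16). Leaving out 10C replicate 2 gave 0.016, leaving out 10C replicate 3 gave -0.26 and leaving out 6C+4CP replicate 2 gave -0.094.

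Among the mitochondrial genes, Hspe1, the lid of the Hsp60 folding cage, was the one with values to compare. Its probe set 1422579_at read 8.94, 9.11 and 9.06 in 6C+4CP livers, against 9.18, 9.41 and 9.25 in 10C livers. Every 6C+4CP mouse lay below every 10C mouse, by a small margin. The difference was -0.25 (SE 0.083, limma adjusted p = 0.704, or 0.260 among varying probe sets alone), or 1.19 times higher in 10C. The brighter probe set, 1450668_s_at, read 11.01, 11.18 and 11.00 in 6C+4CP mice and 11.24, 11.25 and 11.11 in 10C mice, a difference of -0.14 (SE 0.073), with 6C+4CP replicate 2 above 10C replicate 3. Without 6C+4CP replicate 2 the differences were -0.28 and -0.20, and without 10C replicate 2 they were -0.18 and -0.11. When 10C replicate 3 was left out they were -0.26 and -0.18.

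Hspd1, the cage itself, had 1 probe set with a shared value of 11.77, so its level cannot be compared with that of Hspe1 across its shared upstream region. Hspa9, the mitochondrial Hsp70, had 5 probe sets, 4 of them with shared values of 10.53, 10.03, 7.87 and 6.35. The fifth, 1453811_at, varied by 0.050 over the 6 mice, from 6.05 to 6.10, with a difference of -0.0068 (SE 0.017) and with overlap. The mitochondrial result thus rests on the 2 probe sets of Hspe1.

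Set against each other, the compartments are covered unevenly, by 16 varying cytosolic and 3 varying mitochondrial probe sets. The varying cytosolic probe sets ranged over 0.49 to 4.06 across the 6 mice and the mitochondrial ones over 0.050 to 0.47. The cytosolic median minus the mitochondrial median of the log2 difference was 0.13, and it was -0.0055 without 10C replicate 3. Relative to the 10C mean of each probe set, the cytosolic median of each mouse was 0.017, 0.0096 and -0.044 in 6C+4CP replicates 1 to 3 and 0.13, 0.19 and -0.31 in 10C replicates 1 to 3. The mitochondrial median was -0.19, -0.016 and -0.20 in 6C+4CP mice and -0.023, 0.051 and -0.028 in 10C mice. In the cytosol all 3 mice on 6C+4CP lay within the 10C range, and in mitochondria 6C+4CP replicate 2 did, while the other two lay below it. These medians describe probe sets of which several share a gene, and no test was made on them.

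**Figure D3:**
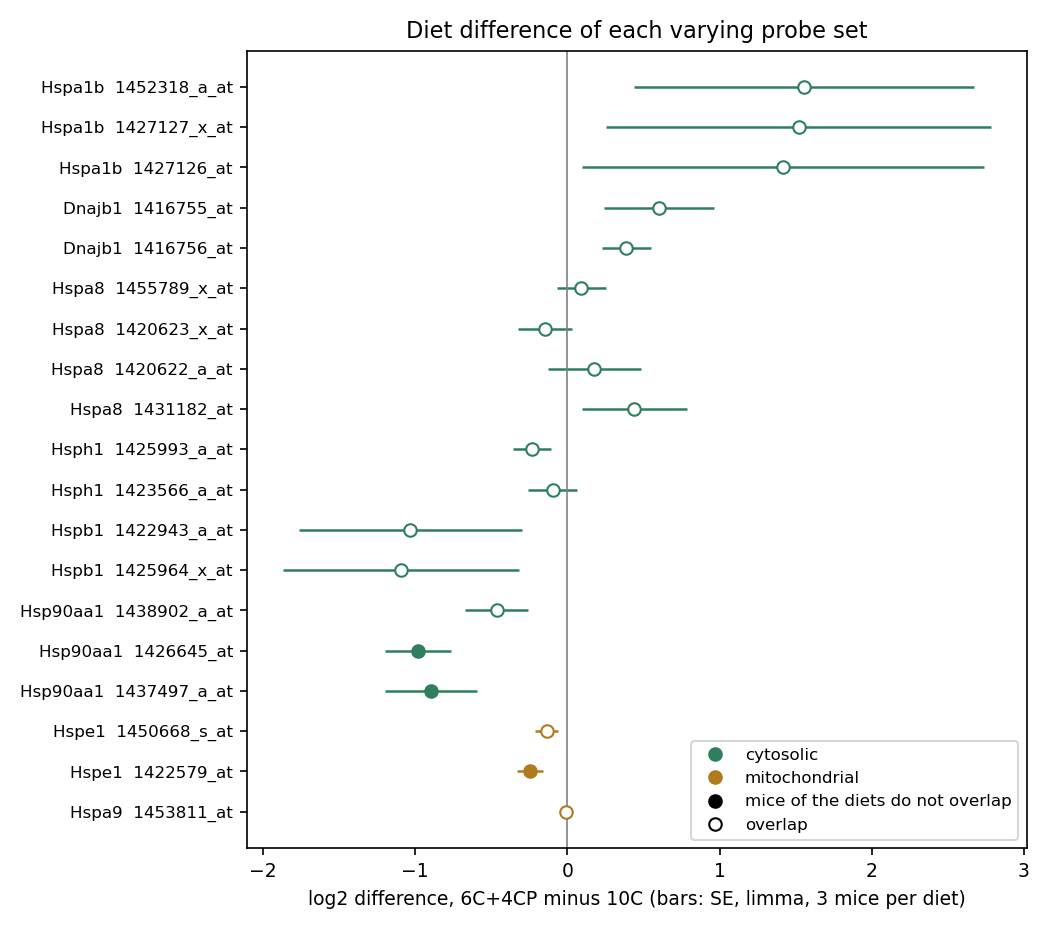
Log2 difference between the diets, 6C+4CP minus 10C (x axis), of each of the 19 varying heat shock probe sets (rows), with bars of 1 SE from limma; green is cytosolic, ochre mitochondrial, and filled points mark probe sets in which the mice of the diets do not overlap. Filled points are 2 probe sets of Hsp90aa1 and 1 of Hspe1, all left of 0, and the widest bars are those of Hspa1b and Hspb1.

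Genes that work with these chaperones showed no common shift either. Of 100 genes in 10 lists 94 were measured and 36 varied, 17 with a higher and 19 with a lower mean in 6C+4CP, with a median difference of -0.017. Limma called 0 of the 94, and 0 of the 36 among varying probe sets alone. At an unadjusted p under 0.05 there were 4 of the 36, against 13.7% of all genes whose probe set varied. Without overlap there were 2 lower (background 9.52%) and 2 higher (background 11.8%). The factors and regulators of the heat shock response could not be compared, since all 6 measured, Hsf2 among them, held shared values, as did all 8 of the other small heat shock proteins.

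Partners of Hsp70 in the cytosol went both ways. Of the other Hsp70 and Hsp110 genes 4 of 8 varied, 3 higher and 1 lower, with Hspa4l, an Hsp110 relative, at -0.52 (SE 0.26) and Hspa4, another, at 0.11 (SE 0.19). Of 15 J-domain genes 4 varied, 3 higher and 1 lower. Dnaja2, a J-domain partner of Hspa8, read 10.32, 10.32 and 10.29 in 6C+4CP mice, against 10.12, 10.04 and 10.04 in 10C mice. The diets did not overlap, and the difference of 0.24 (SE 0.028) did not pass limma (adjusted p = 0.235), although it did without 10C replicate 1 (0.27, adjusted p = 0.0149). With 10C replicate 1 left out, the fit to varying probe sets alone called no probe set. Dnajb2 differed by -0.44 (SE 0.23) and Dnaja1 by 0.18 (SE 0.18). Among 10 exchange and adaptor genes 4 varied, 3 higher and 1 lower, with Bag3, an exchange factor induced by stress, at 0.25 (SE 0.12), Bag4 at 0.32 (SE 0.17), and Stip1, which links Hsp70 to Hsp90, at -0.21 (SE 0.27).

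Co-chaperones of Hsp90 varied in 5 of 13 genes, 2 higher and 3 lower. Ahsa1, which speeds the ATPase of Hsp90, differed by -0.31 (SE 0.18), its relative Ahsa2 by -0.26 (SE 0.16) and the immunophilin Fkbp4 by -0.15 (SE 0.10), all with overlap. In the TRiC chaperonin, which folds actin and tubulin, 7 of 8 subunit genes varied, 1 higher and 6 lower. Its subunit Cct3 read 9.92, 9.93 and 9.69 in 6C+4CP mice, against 10.07, 10.47 and 10.16 in 10C mice, without overlap (difference -0.39, SE 0.14, limma adjusted p = 0.704). Cct2 differed by -0.14 (SE 0.065) and Cct7 by -0.25 (SE 0.16). Prefoldin, which delivers proteins to TRiC, varied in 3 of 6 genes, all lower in mean, with Pfdn2 at -0.062, Vbp1 at -0.058 and Pfdn4 at -0.0018. Vbp1 was not called with all mice, but was called without 10C replicate 3 (-0.27, limma adjusted p = 0.0382). That mouse read 7.66, against 8.28 in each of the other 10C mice and 7.99 to 8.03 in 6C+4CP mice. The fit to varying probe sets alone, with that mouse left out, called no probe set.

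Of 12 other mitochondrial chaperone and import genes 6 varied, 5 higher and 1 lower. Grpel2, an exchange factor for the Hsp70 of mitochondria, read 8.93, 8.86 and 9.31 in 6C+4CP mice, against 8.23, 7.91 and 8.36 in 10C mice. All 3 mice on 6C+4CP lay above all 3 on 10C, with a difference of 0.87 (SE 0.19) that did not pass limma (adjusted p = 0.572). Its relative Grpel1 differed by 0.012 (SE 0.014) and Tomm70a, an import receptor, by 0.17 (SE 0.12). Of 8 mitochondrial proteases 3 varied, all lower in mean. Clpp, the protease that breaks down unfolded matrix proteins, read 8.48, 8.53 and 8.51 in 6C+4CP mice and 8.67, 8.72 and 8.64 in 10C mice, without overlap (difference -0.17, SE 0.027, limma adjusted p = 0.421). Pmpcb differed by -0.094 (SE 0.069) and Clpx, the unfolding partner of Clpp, by -0.39 (SE 0.69).

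**Figure D4:**
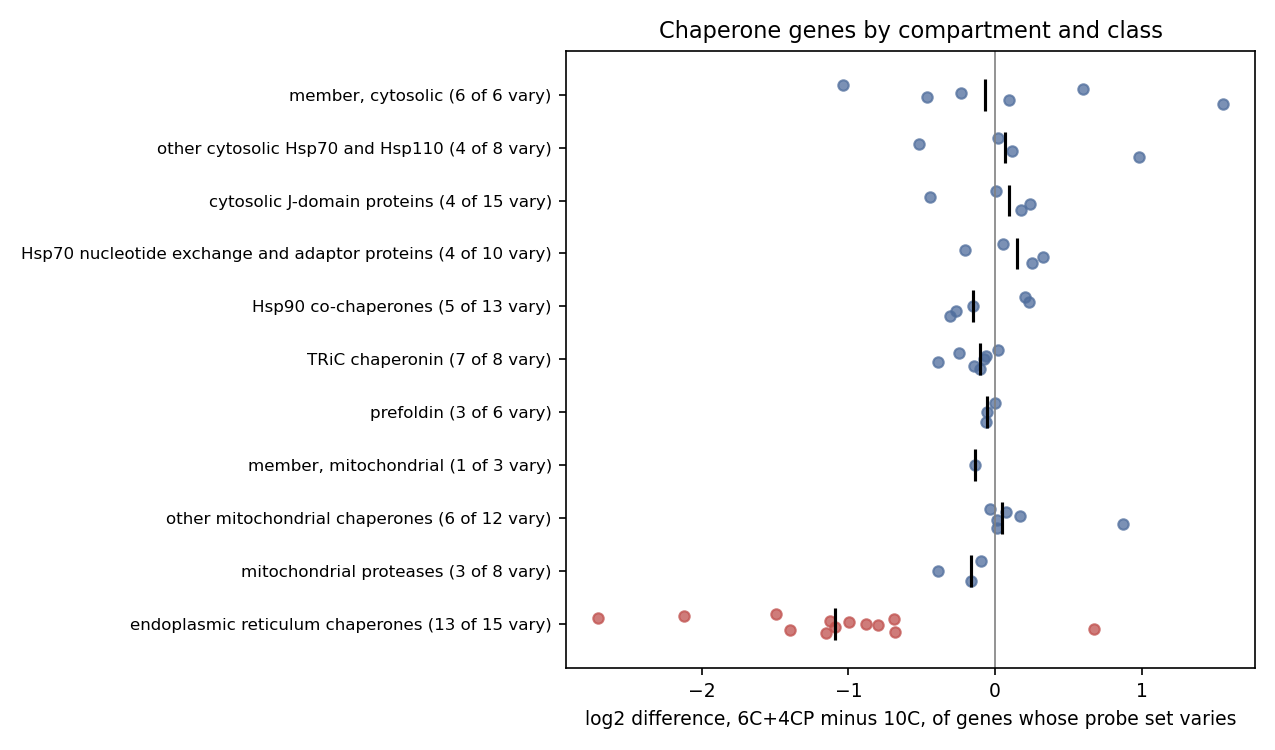
Log2 difference between the diets, 6C+4CP minus 10C (x axis), of each gene whose highest-mean probe set varied, by chaperone list (rows, with the number that varied out of those measured); the black line is the median of a list. Cytosolic and mitochondrial lists (blue) lie around 0, with medians from -0.17 to 0.15, and 12 of the 13 endoplasmic reticulum chaperones (red) lie at or below -0.68.

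The same classes of chaperone exist in the endoplasmic reticulum, where 12 of 13 varying genes had lower means in 6C+4CP (median -1.09). In all 12 the diets did not overlap (background 9.52%), but limma called 0 of the 15 measured, also among varying probe sets alone. Over all probe sets the limma adjusted p was 0.272 for Hspa5 and 0.591 for Hyou1. Among varying probe sets alone it was 0.101 and 0.162. From this list 4 pairs of relatives, chosen after these values were seen, were compared within each mouse. For Hsp70, Hspa8 differed by 0.092 and its relative BiP (Hspa5) by -1.15. The value of Hspa8 minus that of Hspa5 was 0.40, 0.32 and 0.26 in 6C+4CP mice, against -0.55, -1.07 and -1.13 in 10C mice, without overlap. The shift of this gap between the diets was 1.25, with an exact two-sided permutation p = 0.1, the smallest that 3 against 3 mice can give, or 0.133 adjusted over the 4 pairs. Since the pairs were picked with these values known, the permutation p-values here and below are a description only. The adjustment over the 4 pairs does not cover that choice. For Hsp110, Hsph1 differed by -0.23 and its relative Hyou1 by -1.40, and the gap shifted by 1.16 without overlap (exact permutation p = 0.1, adjusted 0.133). For J-domain proteins, Dnajb1 differed by 0.60 and Dnajb11 by -1.09, and the gap shifted by 1.69 without overlap (exact permutation p = 0.1, adjusted 0.133). This contrast depends on the partner chosen. Of other J-domain genes in the list, Dnajc3 differed by -0.80 (SE 0.11) without overlap. Dnajb9, the 1 varying gene of the list with a higher mean, differed by 0.68 (SE 0.53) with overlap, much like Dnajb1.

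For Hsp90 the result depended on the probe set. Hsp90aa1, at its brightest probe set, differed by -0.47 and its relative Hsp90b1 (Grp94) by -0.68. The gap between them was 0.096, 0.55 and 0.33 in 6C+4CP mice, against 0.30, 0.032 and -0.00030 in 10C mice, with overlap. It shifted by 0.22 (exact two-sided permutation p = 0.2, adjusted 0.2). The other Hsp90aa1 probe sets that varied differed by -0.98 and -0.89, more than Hsp90b1, so with them the shift has the opposite sign. With 3 mice per diet no pair could reach 0.05, and the tests set no pair apart from another. Leaving out any 1 mouse, the gaps stayed between 1.14 and 1.43 for Hspa8, 0.94 and 1.40 for Hsph1, 1.47 and 2.04 for Dnajb1, and 0.10 and 0.33 for Hsp90aa1 at its brightest probe set.

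The genes most like Hspa1b over the 6 mice, among 3887 named genes with varying values, were Mfsd14b (r = 0.988), Cers6, a ceramide synthase (0.981), and Prkaa1, a catalytic subunit of the energy sensor AMPK (0.976). The least alike was Pdia5, a disulfide isomerase of the endoplasmic reticulum (r = -0.988). For Hspe1 the most alike were Ncbp2 (0.993), which binds the mRNA cap, Irf9 (0.985), a factor of interferon signalling, and Lmod2 (0.979), and the least alike was Abcg5 (-0.977), a sterol transporter. Cers6 read 7.75, 7.27 and 7.98 in 6C+4CP mice, against 7.62, 7.26 and 6.75 in 10C mice, in the same order of mice as Hspa1b. These coefficients are Pearson's r over 6 mice, picked as extremes of many, and are given as a description.

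Of 14 immediate early genes, which respond quickly to stimuli, 3 varied: Jun at 0.28 (SE 0.21), Egr1 at -0.23 (SE 0.25) and Dusp1 at 0.047 (SE 0.35). Of 14 acute phase genes 12 varied, 3 higher and 9 lower in mean, with Orm2 at 0.63 (SE 0.26), Fgb at -0.12 (SE 0.080) and Saa1 at -2.0 (SE 1.97). Saa1 was highest in 10C replicate 2 at 14.03, against 7.54 to 9.13 in the others. That mouse was also the highest for Hsp90aa1, Hsph1, Hspe1 and Hspa5, among others. Of 45 measured markers of 11 cell types 13 varied, 4 higher and 9 lower. Of 6 Kupffer cell markers 4 varied, 1 higher and 3 lower in mean. Vsig4 differed by -0.19 (SE 0.29), C1qa by -0.10 (SE 0.16) and Adgre1, the higher one, by 0.058 (SE 0.13). The summed value of all 6 ran from 44.78 to 46.84 in 6C+4CP mice and from 45.39 to 47.13 in 10C mice. The B cell gene Ighm differed by -0.66 (SE 0.17), the erythroid gene Alas2 by 0.13 (SE 0.054), the stellate genes Dcn and Col1a1 by -0.056 and -0.0085, and the hepatocyte genes Cps1 and Apoa1 by -0.27 and -0.11, without overlap for Ighm, Cps1 and Apoa1. The other two varying hepatocyte markers, Hnf4a and Ttr, had higher means in 6C+4CP, by 0.40 (SE 0.13) and 0.032 (SE 0.012), also without overlap. Over all cell types, 3 of the 13 varying markers were lower without overlap (background 9.52%) and 2 were higher (background 11.8%). Limma called 0 of the 45 markers. The summed value of the 5 hepatocyte markers ran from 66.35 to 66.46 in 6C+4CP mice and from 66.10 to 66.55 in 10C mice. All markers of endothelium, cholangiocytes, T or NK cells, neutrophils, skeletal muscle and adipocytes held shared values. The part of these cell types in the heat shock values was not tested.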

How the data were processed

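Total RNA of 6 livers was labelled with biotin from 100 ng and measured on 1 Affymetrix 3′ IVT array per mouse, per the labels' protocols. Groups and replicate numbers come from the sample titles, and each array is a separate mouse. The authors' deposited values are on a log scale read as log2. R 2.7.2 is named in the submitters' processing notes. How background was corrected and probes summarised, and which log base was used, is not stated in those notes or labels.

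The table holds 45101 probe sets, of which 64 array controls were left out. Probe sets were named from GEO's platform annotation: 34945 had 1 symbol, 932 several and 9160 none. Lists used the probe set with the highest mean per gene. The difference between diets, 6C+4CP minus 10C, was tested by limma 3.58.1 under R 4.3.3 (lmFit, eBayes, no covariates), with Benjamini-Hochberg adjustment over all 45037 probe sets and a threshold of 0.05. Of its 109 calls 103 were shared values that differed by at most 1.3e-08. Gaps between gene pairs were compared by exact two-sided permutation. The fit was also run on simulated data. These were drawn from varying probe sets only, so they do not cover the shared values in the main fit.

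The members and lists were chosen with earlier results of these data known, and the 4 gene pairs and the promoter motifs after values were seen. Every member was named. Of each list the text names up to 3 varying genes by smallest p, and up to 2 per cell type. Some others were added, among them markers that went the other way and J-domain genes of the endoplasmic reticulum. The alternatives were the replicate block, leaving out each mouse, quantile normalization, median centring, varying or brighter probe sets only, an intensity trend with robust estimation, a range over 0.1, and 1 probe set per gene.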

Additional observations from a re-analysis of the deposited data

How the results depend on the processing

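No heat shock probe set was called in any of 21 settings (14 planned, 7 added after seeing the data), the smallest adjusted p being 0.0742 (limma). Of the 19 varying ones 15 kept their sign throughout. The 4 that turned did so when 1 mouse was left out, with differences from -0.061 to 0.18 for Hspa8 1455789_x_at, -0.12 to 0.34 for Hspa8 1420622_a_at, -0.26 to 0.016 for Hsph1 1423566_a_at and -0.018 to 0.0040 for Hspa9 1453811_at (0.0039 when 10C replicate 3 was left out). The cytosolic median ran from -0.19 to 0.086 and the mitochondrial from -0.20 to -0.10 when 1 mouse was left out. The counts of 8 lower and 8 higher cytosolic probe sets became 3 and 3 with 1 probe set per gene, and the mitochondrial 3 became 1, since fewer were counted; leaving out 1 mouse gave 0 to 1 higher mitochondrial probe sets. Of the partner genes 0 to 1 were called when 1 mouse was left out.

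The count of all called probe sets, 109, depended on the setting: 285 to 398 when 1 mouse was left out, 0 with median centring, with the intensity trend, with brighter probe sets or with varying ones alone (there also 0 with the replicate block and when 1 mouse was left out), 1 with quantile normalization and 3 with the replicate block; the cause was not tested beyond the shared values among the calls. The labels state no pairing of mice by replicate number. Same-numbered deviations correlated at 0.48, -0.089 and 0.085, and not every mouse correlated best with its own number. With 3 mice per diet these values cannot show whether a pairing exists. With 3 mice per diet and no signal over background deposited, small differences cannot be resolved.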
